A study of Mus musculus with 12 samples.

Results

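GABA-A receptors are the chloride channels through which most fast inhibition in the brain runs. The genes described here encode 7 of their subunits: Gabra2, Gabra3, Gabra4 and Gabra5 (α subunits), Gabrb1 and Gabrb2 (β subunits) and Gabrd (the δ subunit). Every probe set that the platform annotation assigns to one of these symbols alone was taken, which gave 21 probe sets out of 34945 with a single gene symbol. The arrays carried 1 probe set for Gabra5, 2 each for Gabra3, Gabra4 and Gabrd, 4 for Gabrb1, and 5 each for Gabra2 and Gabrb2.

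The 12 arrays formed 4 groups of 3: APPsα-DM hippocampus, APLP2-KO hippocampus, APPsα-DM prefrontal cortex and APLP2-KO prefrontal cortex. All mice were adult females of 38 to 40 weeks, and all lacked APLP2, which belongs to the same protein family as APP, the amyloid precursor protein. Wild-type mice were not analysed here. The APPsα-DM mice (APPα/αAPLP2-/-) had both App alleles replaced by a form known to encode the secreted ectodomain APPsα alone. The APLP2-KO mice (APLP2-/-) kept a normal App. Mice had been crossed back to C57BL/6 for 6 generations. The substrain is not given, which bears on Gabra2, since C57BL/6J mice are known to carry an intronic deletion that lowers Gabra2 RNA. The design gives 3 mice per genotype, but the labels do not say whether arrays of 1 number came from 1 mouse, so the p-values measure the spread between these arrays.

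GABA-A receptors are pentamers, most often built of α, β and γ or δ subunits, with GABA bound between α and β. The α subunit sets where a receptor sits and which benzodiazepines it binds. Receptors with α5 or with δ lie largely outside synapses and carry a steady, tonic inhibition. In the forebrain δ pairs mainly with α4, and α5 receptors are known as a hallmark of hippocampal pyramidal cells. The α2 subunit is known from synapses on the axon initial segment, and α3 from deep cortical layers and the thalamic reticular nucleus.

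Values were log2 signals, on which 1 unit is a 2-fold change of signal. The levels of different probe sets are not comparable with each other, so each is followed across arrays only. Arrays of a group correlated at r = 0.995 to 0.997. App itself (probe set 1427442_a_at) lay between 11.46 and 11.83 on the APPsα-DM arrays, against 13.38 to 13.50 on the APLP2-KO arrays, with no overlap. The labelled tissues showed their markers: 6 of 6 CA pyramidal genes and 5 of 7 dentate granule genes were higher in hippocampus than in cortex in both genotypes. Of the 10 cortical layer genes, 7 were lower in hippocampus in APPsα-DM and 8 in APLP2-KO. The cortex samples also carried a striatal signal. All 10 striatal genes were lower in hippocampus than in cortex in both genotypes. Their mean level per array was 7.30 to 7.53 in APPsα-DM hippocampus and 7.14 to 7.52 in APLP2-KO hippocampus, against 9.37 to 9.91 in APPsα-DM cortex and 9.17 to 9.61 in APLP2-KO cortex. None of the 9 choroid plexus genes was called between the tissues, but Ttr, their brightest member, varied between 8.20 and 14.36 and stood out in cortex on APPsα-DM array 2 (14.18) and APLP2-KO array 3 (14.03). One hippocampus sample stood apart. Gabra6, the α6 subunit of cerebellar granule cells, read 7.39 in APLP2-KO hippocampus 3, against 3.10 to 4.13 on the other arrays. Cbln3, another cerebellar granule cell gene, chosen after its values were seen, read 7.83 there (1455445_at), against at most 4.63 elsewhere. Its other probe set, 1422911_at, which had the higher mean, read 5.71 there, against at most 4.62 elsewhere.

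Of the 7 genes, 5 differed between the tissues in both genotypes: Gabra5 and Gabrb1 were higher in hippocampus than in cortex, and Gabrd, Gabra3 and Gabra4 were lower. A gene was counted here if any of its probe sets was called. Gabra4 passed in APPsα-DM through 1429330_at alone (adjusted p = 0.0288), not through its leading probe set 1433707_at (0.0545). Gabrb2 passed the test in APLP2-KO through 2 of its 5 probe sets, and Gabra2 passed in neither genotype. These calls come from the fit without the replicate number. With the number as a block, the leading Gabra2 probe set was called higher in hippocampus in APLP2-KO (adjusted p = 4.31e-05). There the numbers were taken to pair the samples. It was also called in APPsα-DM (adjusted p = 4.91e-05), where they were not. The block lost Gabra4 1433707_at but not 1429330_at in APLP2-KO (adjusted p = 0.0605 and 0.0047). The counts that follow are without the block. In APPsα-DM 3 of 21 probe sets were higher and 4 lower at an adjusted p under 0.05, in 5 of the 7 genes. In APLP2-KO 4 were higher and 7 lower, in 6 of the 7 genes. Over all 45037 probe sets tested, 10.6% were called in APPsα-DM (5.21% higher, 5.42% lower) and 12.6% in APLP2-KO (5.62% higher, 6.98% lower). The 7 probe sets called in APPsα-DM were called with the same sign in APLP2-KO, as were 8.31% of all probe sets in both. In APPsα-DM 10 of the 21 did not overlap between the tissues (27.4% of all probe sets) and 15 had an unadjusted p under 0.05 (22.9%). In APLP2-KO 15 did not overlap (30.2%) and 17 had an unadjusted p under 0.05 (24.6%). The median tissue difference of the 21 probe sets was -0.01 in APPsα-DM and 0.15 in APLP2-KO. Between the genotypes none of the 21 passed the test in either tissue. In these pieces of bulk tissue, fewer cells of a type and less RNA per cell cannot be told apart.

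**Figure D1:**
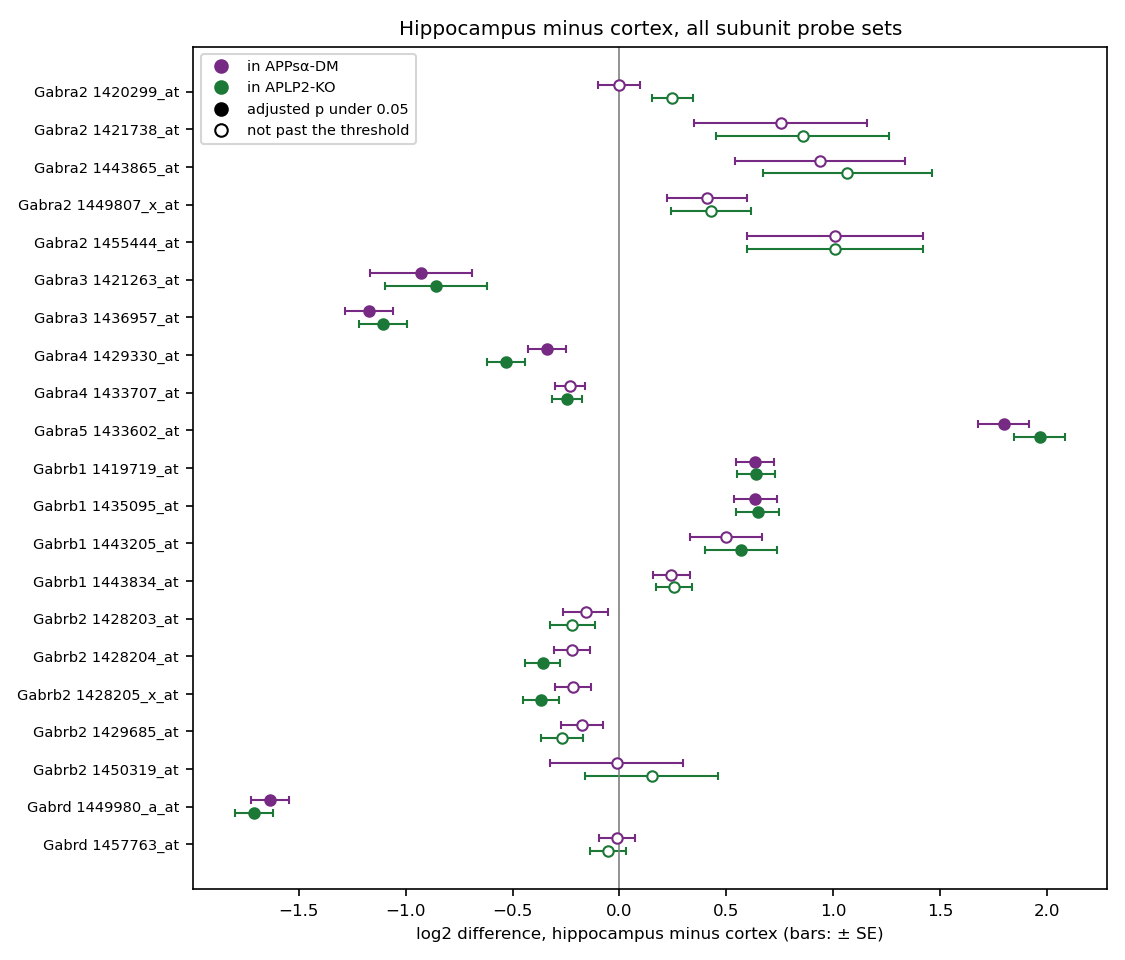
Difference in log2 signal, hippocampus minus cortex, of the 21 probe sets in APPsα-DM and APLP2-KO (bars are the moderated SE, filled points have an adjusted p under 0.05). Gabra5 stands at 1.80 and 1.97 and Gabrd 1449980_a_at at -1.63 and -1.71, and the 3 bright Gabra2 probe sets, near 1, have the longest bars.

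Gabra5 and Gabrb1 rose and Gabra4 fell in hippocampus, and Gabra4 and Gabrb1 are neighbours on chromosome 5, so the sequences around their starts and that of Gabra5 are shown here. They come from RefSeq (build GRCm38.p6), run 5′ to 3′ on the gene's own strand and span 250 bases before to 50 bases after the start. Of the 7 genes, 6 matched the sequence table (all but Gabrd), with 10 windows in all. Capitals mark the GC box GGGCGG on either strand.
Gabra5, chr7:57510010-57510309, minus strand: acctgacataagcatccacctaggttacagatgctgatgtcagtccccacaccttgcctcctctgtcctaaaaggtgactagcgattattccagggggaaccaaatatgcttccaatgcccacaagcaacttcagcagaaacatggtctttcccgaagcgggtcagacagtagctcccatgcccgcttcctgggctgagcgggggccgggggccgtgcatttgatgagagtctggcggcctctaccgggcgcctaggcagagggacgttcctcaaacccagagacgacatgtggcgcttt
Gabra4, chr5:71658259-71658558, minus strand: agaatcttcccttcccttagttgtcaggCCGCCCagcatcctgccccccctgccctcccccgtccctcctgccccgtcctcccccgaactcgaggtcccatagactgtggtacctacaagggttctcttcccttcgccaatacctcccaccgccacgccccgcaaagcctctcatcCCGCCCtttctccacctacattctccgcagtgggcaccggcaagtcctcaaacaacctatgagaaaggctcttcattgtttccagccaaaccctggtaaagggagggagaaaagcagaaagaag
Gabrb1, first of 2 annotated starts, chr5:71657671-71657970, plus strand: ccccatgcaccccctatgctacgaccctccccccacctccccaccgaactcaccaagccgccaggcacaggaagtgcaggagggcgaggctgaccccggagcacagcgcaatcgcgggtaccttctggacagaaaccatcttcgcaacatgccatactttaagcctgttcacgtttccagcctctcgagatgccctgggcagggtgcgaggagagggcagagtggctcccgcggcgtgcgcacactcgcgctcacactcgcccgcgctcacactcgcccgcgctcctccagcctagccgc
The Gabra4 start and this Gabrb1 start lie 387 bases apart on opposite strands, each inside the other's transcript as annotated. The Gabra4 window held the GC box at 2 places, the Gabra5 and Gabrb1 windows at none, and 35.7% of the 32851 promoter windows in the table held it. The E-box CANNTG occurred 3 times in the Gabra5 window and in neither of the others, against 72.3% of all windows with at least 1. TATAAA, TGACGTCA (the cAMP response element) and GCGTGGGCG (an EGR site), searched on both strands, were in none of these 3 windows and in 13.6%, 1.79% and 0.612% of all windows. Among the windows not shown, the GC box was at 2 places for Gabra2 and at 1 for the first start of Gabrb2. It was in no other of them, including both windows of Gabra3. These are letter matches only.

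Gabra5, the α subunit of extrasynaptic receptors on hippocampal pyramidal cells, showed the largest tissue difference of the 7 genes. Its probe set 1433602_at read 10.32, 10.63 and 10.55 in APPsα-DM hippocampus and 10.53, 10.44 and 10.65 in APLP2-KO hippocampus. In cortex it read 8.66, 8.57 and 8.88 in APPsα-DM and 8.35, 8.59 and 8.77 in APLP2-KO. Every hippocampus array lay above every cortex array. Hippocampus exceeded cortex by 1.80 ± 0.12 (SE) in APPsα-DM, 3.48-fold (adjusted p = 1.11e-06), and by 1.97 ± 0.12 in APLP2-KO, 3.91-fold (adjusted p = 4.88e-07). The group means were 10.50 ± 0.16 in APPsα-DM hippocampus and 10.54 ± 0.10 in APLP2-KO hippocampus, against 8.70 ± 0.16 in APPsα-DM cortex and 8.57 ± 0.21 in APLP2-KO cortex (SD, n = 3 each). Within a tissue the genotypes did not differ beyond this spread. The genes whose levels followed Gabra5 most closely over the 12 arrays were Kctd4, Dock9 and Scn3b (r = 0.995 each, out of 20323 brighter probe sets of single genes). Such correlations are a description, since the arrays share 2 tissues and the tissue difference alone gives a high r.

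Gabrd, the δ subunit, was the counterpart, with the largest fall. Its bright probe set 1449980_a_at read 7.54, 7.74 and 7.71 in APPsα-DM hippocampus and 7.57, 7.53 and 7.68 in APLP2-KO hippocampus, against 9.17, 9.39 and 9.32 in APPsα-DM cortex and 9.44, 9.28 and 9.19 in APLP2-KO cortex. No hippocampus array reached a cortex array. The difference was -1.63 ± 0.09 (SE) in APPsα-DM, 3.10-fold lower (adjusted p = 2.83e-07), and -1.71 ± 0.09 in APLP2-KO, 3.27-fold lower (adjusted p = 1.83e-07). The hippocampus groups averaged 7.66 ± 0.11 in APPsα-DM and 7.59 ± 0.08 in APLP2-KO (SD, n = 3 each), and the cortex groups 9.30 ± 0.11 and 9.30 ± 0.13. Within a tissue the arrays of the genotypes overlapped. The array with the cerebellar signal, APLP2-KO hippocampus 3, read 7.68, inside the range of the others. A second Gabrd probe set, 1457763_at, was dim, at 4.45 to 4.70 on all arrays, and differed by -0.01 ± 0.08 in APPsα-DM and -0.06 ± 0.08 in APLP2-KO, neither past the test. Averaged over both probe sets the difference was -0.82 in APPsα-DM and -0.88 in APLP2-KO, still called. The closest patterns over the 12 arrays were those of Phactr1 and Mtcl1 (r = 0.994 each) and Neu2 (r = 0.993).

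**Figure D2:**
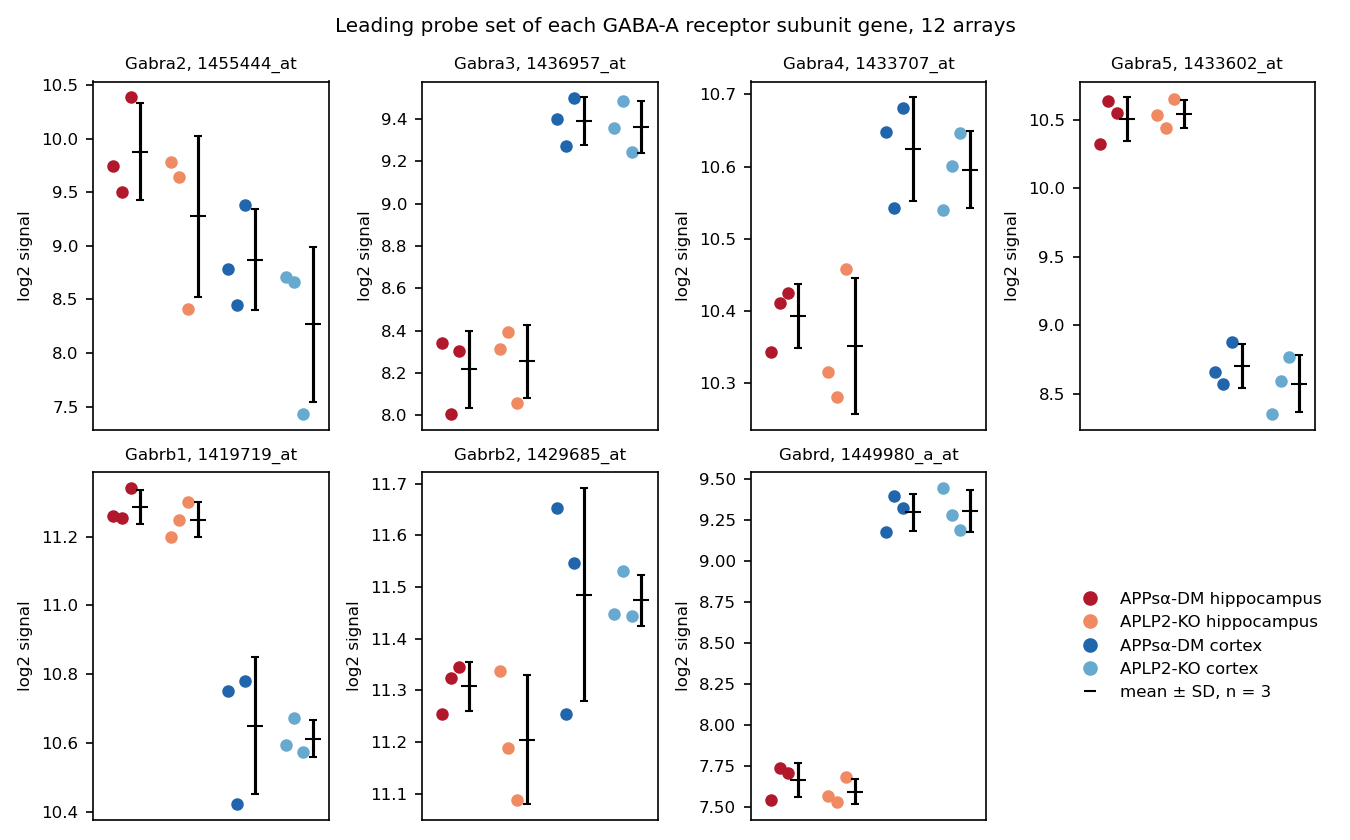
Log2 signal of the leading probe set of each gene on all 12 arrays, by group, with the group mean ± SD (n = 3) beside the points. Gabra5 separates hippocampus (10.32 to 10.65) from cortex (8.35 to 8.88) and Gabrd does so the other way (7.53 to 7.74 against 9.17 to 9.44), while the Gabra2 points scatter widely within every group.

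Gabra3, an α subunit of cortical and brain stem neurons, was also lower in hippocampus. Its leading probe set 1436957_at read 8.34, 8.01 and 8.30 in APPsα-DM hippocampus and 8.31, 8.39 and 8.06 in APLP2-KO hippocampus, against 9.40, 9.27 and 9.50 in APPsα-DM cortex and 9.36, 9.48 and 9.24 in APLP2-KO cortex. The tissues did not overlap. The difference was -1.17 ± 0.11 (SE) in APPsα-DM, 2.26-fold lower (adjusted p = 2.28e-05), and -1.11 ± 0.11 in APLP2-KO, 2.15-fold lower (adjusted p = 3.13e-05). The hippocampus groups averaged 8.22 ± 0.18 in APPsα-DM and 8.25 ± 0.17 in APLP2-KO, and the cortex groups 9.39 ± 0.11 and 9.36 ± 0.12 (SD, n = 3 each), so that within a tissue the genotypes overlapped. The dimmer probe set 1421263_at moved the same way, by -0.93 ± 0.24 in APPsα-DM (adjusted p = 0.0249) and -0.86 ± 0.24 in APLP2-KO (adjusted p = 0.0323). That call rested on single arrays. In APPsα-DM the adjusted p was 0.1005 without cortex 1, 0.0848 without cortex 3 and 0.0917 without hippocampus 2. In APLP2-KO it was 0.128 without cortex 2, 0.0791 without cortex 3, 0.0524 without hippocampus 1 and 0.134 without hippocampus 3. Arpp21 (r = 0.994), Elmo1 (0.992) and Rgs20 (0.991) had the patterns nearest to the leading probe set.

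Gabra4, the usual partner of δ in the forebrain, fell far less. Its bright probe set 1433707_at read 10.34, 10.41 and 10.43 in APPsα-DM hippocampus and 10.32, 10.28 and 10.46 in APLP2-KO hippocampus, against 10.65, 10.54 and 10.68 in APPsα-DM cortex and 10.54, 10.60 and 10.65 in APLP2-KO cortex. Although the tissues did not overlap, the difference was only -0.23 ± 0.07 (SE) in APPsα-DM, just short of the threshold (adjusted p = 0.0545), and -0.24 ± 0.07 in APLP2-KO (adjusted p = 0.0369). With the replicate number as a block, the APLP2-KO value was no longer called (adjusted p = 0.0605). It was also lost without APLP2-KO hippocampus 1 (0.103), hippocampus 2 (0.148), cortex 2 (0.0958) or cortex 3 (0.118), or without APPsα-DM hippocampus 3 (0.0533). The APPsα-DM value was called without APPsα-DM cortex 2 (adjusted p = 0.0456) or without APLP2-KO hippocampus 3 (0.0433).

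The second Gabra4 probe set, 1429330_at, gave a firmer fall in APLP2-KO. It read 9.02, 9.20 and 9.34 in APPsα-DM hippocampus and 9.06, 9.11 and 9.12 in APLP2-KO hippocampus, against 9.53, 9.46 and 9.60 in APPsα-DM cortex and 9.77, 9.51 and 9.62 in APLP2-KO cortex. The difference was -0.34 ± 0.09 (SE) in APPsα-DM (adjusted p = 0.0288) and -0.53 ± 0.09 in APLP2-KO (adjusted p = 0.00155). In APPsα-DM the call was lost without cortex 1 (adjusted p = 0.0756), cortex 3 (0.0922), hippocampus 1 (0.111) or hippocampus 2 (0.0621). The 2 genotypes' differences were not shown to be unequal: the interaction was 0.19 ± 0.13, with an unadjusted p of 0.157. The patterns most like that of 1433707_at were those of Sorbs2 (r = 0.960), Septin11 (0.953) and Pla2g4e (0.952).

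The falls of Gabrd, Gabra3 and Gabra4 went along with the striatal signal of the cortex samples, since the striatal genes had a median difference of -2.28 in APPsα-DM and -2.08 in APLP2-KO. The striatum is known to express δ and α4. Cortical layer genes moved the same way, with medians of -0.95 in APPsα-DM and -1.06 in APLP2-KO over 10 genes. Hippocampal genes moved the opposite way to these 3 subunits. The medians were 2.73 in APPsα-DM and 3.12 in APLP2-KO over 7 dentate granule genes, and 1.10 and 1.12 over 6 CA genes. The part of any of these cell types in the subunit differences was not tested.

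Gabra2, the α subunit of axon initial segment synapses, varied widely within the groups. Over the 6 arrays of a tissue, both genotypes together, its span was larger than its difference between the tissues. Its leading probe set 1455444_at read 9.75, 9.51 and 10.39 in APPsα-DM hippocampus 1, 2 and 3, and 9.78, 9.64 and 8.41 in APLP2-KO hippocampus 1, 2 and 3. In cortex it read 8.79, 8.45 and 9.38 in APPsα-DM and 8.71, 8.66 and 7.43 in APLP2-KO, in the same order. The highest array of each tissue was APPsα-DM 3 and the lowest was APLP2-KO 3. The 2 lowest arrays were among those that stood apart in other genes. APLP2-KO hippocampus 3 did so in Gabra6 (7.39) and Cbln3 (7.83), and APLP2-KO cortex 3 in Ttr (14.03). APPsα-DM cortex 2, also high in Ttr (14.18), read 8.45 in Gabra2. APPsα-DM hippocampus 3, the highest array in Gabra2, read 14.36 in Ttr. The part of these signals in the Gabra2 values was not tested. The levels spanned 1.97 over the 6 hippocampus arrays and 1.95 over the 6 cortex arrays. The pooled SD within the groups was 0.62, against a median of 0.0995 over the probe sets above the median level, of which 0.249% had a larger one.

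Hippocampus exceeded cortex in Gabra2 by 1.01 ± 0.41 (SE) in both genotypes, and neither passed the test (adjusted p = 0.158 in APPsα-DM and 0.145 in APLP2-KO). Yet the difference between the arrays of 1 number was nearly constant. For numbers 1, 2 and 3 it was 0.96, 1.06 and 1.01 in APPsα-DM and 1.07, 0.98 and 0.98 in APLP2-KO, with an SD of 0.05 over all 6. In APLP2-KO the numbers were taken to pair the samples, on correlations of 0.109 to 0.155 over all probe sets. There the fit with the number as a block called the rise (adjusted p = 4.31e-05). The same fit called it in APPsα-DM too (adjusted p = 4.91e-05), where the numbers were not taken to pair the samples. That fit held blocks for both genotypes at once. Its estimate of the spread, and so both p-values, drew on the same-numbered pairs of both genotypes. Without APLP2-KO hippocampus 3 the unblocked APLP2-KO difference was 1.44 (adjusted p = 0.0362), and without APLP2-KO cortex 3 it was 0.59 (adjusted p = 0.426).

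The other Gabra2 probe sets behaved alike where they were bright. The tissue difference of 1443865_at was 0.94 ± 0.40 in APPsα-DM and 1.07 ± 0.40 in APLP2-KO (adjusted p = 0.176 and 0.109 in that order), and that of 1421738_at was 0.76 ± 0.41 and 0.86 ± 0.41 (0.301 and 0.217). Their deviations from the group means followed those of 1455444_at at r = 0.991 and 0.979 over the 12 arrays. With the block, both were called in APLP2-KO (9.46e-05 for 1443865_at and 0.0005003 for 1421738_at) and in APPsα-DM (0.000213 and 0.001155 in that order). Without APLP2-KO hippocampus 3, 1443865_at was at 1.50 (adjusted p = 0.0224), and without APLP2-KO cortex 3 it was at 0.71 and 1421738_at at 0.43, while without APPsα-DM hippocampus 3 the APPsα-DM difference of 1421738_at was 0.48. The remaining probe sets were dim. In APLP2-KO, 1449807_x_at (2.85 to 3.80) was at 0.43 ± 0.19 and was called with the block (adjusted p = 0.0418) and without APLP2-KO hippocampus 3 (0.67, adjusted p = 0.0143). In APPsα-DM it was at 0.41 ± 0.19, or 0.27 without cortex 1, and 1420299_at (2.43 to 2.88) was called in neither genotype under any setting.

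Dzip3 (r = 0.934), Gabrb1 through its probe set 1443205_at (0.913) and Pja1 (0.909) had the levels most like those of Gabra2. Among deviations from the 4 group means, which leave the tissue out, the nearest were those of Rab3gap1 (r = 0.972), Zbtb48 (0.956) and Nrsn1 (0.937). These are the highest of 20323 probe sets over 12 arrays and are a description too. For the other subunits the highest such r was similar, from 0.943 (Gabra5) to 0.979 (Gabrb2). Among the other subunits the deviations of Gabra3 1436957_at stood at r = 0.811 with those of Gabra2 and those of Gabrb1 at 0.327 (1419719_at) and 0.800 (1443205_at). Gabra4, the next gene on chromosome 5, was at -0.364 (1433707_at) and 0.267 (1429330_at).

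**Figure D3:**
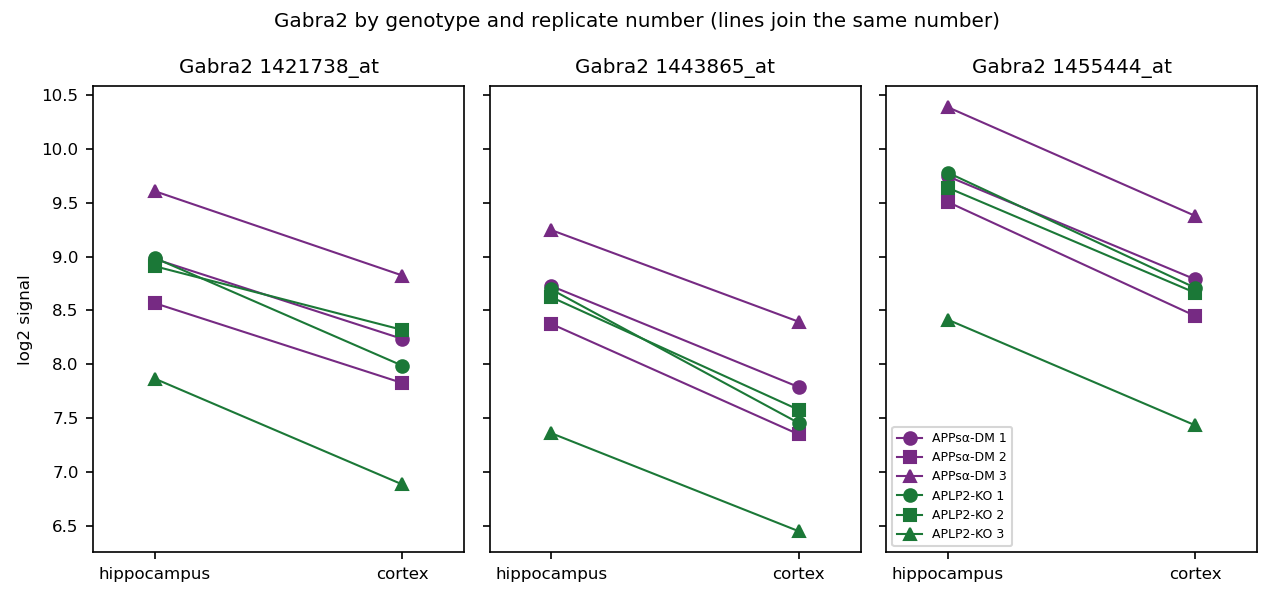
Log2 signal of the 3 bright Gabra2 probe sets in hippocampus and cortex, with lines joining arrays of 1 genotype and number. In 1455444_at the 6 lines run almost in parallel, dropping by 0.96 to 1.07, while their heights differ by up to 1.97 in hippocampus. The drops vary more in 1443865_at (0.85 to 1.24) and 1421738_at (0.59 to 1.00).

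Of the β subunits, which complete the GABA site and bind trafficking proteins, Gabrb1 rose in hippocampus. Its leading probe set 1419719_at read 11.26, 11.25 and 11.34 in APPsα-DM hippocampus and 11.20, 11.25 and 11.30 in APLP2-KO hippocampus, against 10.75, 10.42 and 10.78 in APPsα-DM cortex and 10.59, 10.67 and 10.57 in APLP2-KO cortex. The tissues did not overlap. The rise was 0.64 ± 0.09 (SE) in both genotypes, 1.55-fold in APPsα-DM (adjusted p = 0.000467) and 1.56-fold in APLP2-KO (adjusted p = 0.000383). The probe set 1435095_at gave 0.64 ± 0.10 in APPsα-DM (adjusted p = 0.00118) and 0.65 ± 0.10 in APLP2-KO (adjusted p = 0.00084). Group means of 1419719_at ran from 11.29 ± 0.05 in APPsα-DM hippocampus and 11.25 ± 0.05 in APLP2-KO hippocampus to 10.65 ± 0.20 in APPsα-DM cortex and 10.61 ± 0.05 in APLP2-KO cortex (SD, n = 3 each), and the genotypes lay within the spread. The rises of Gabra5 and Gabrb1 went along with those of the CA and dentate genes, whose mean levels per array were 9.46 to 9.51 (CA) and 8.75 to 8.92 (dentate) in APPsα-DM hippocampus and 9.51 to 9.56 and 8.68 to 9.09 in APLP2-KO hippocampus. In cortex they were 7.69 to 7.94 and 6.21 to 6.37 in APPsα-DM, and 7.77 to 7.84 and 6.16 to 6.45 in APLP2-KO. Their part in the subunit differences was not tested.

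A further Gabrb1 probe set, 1443205_at, shared part of the scatter of Gabra2 (r = 0.800 of the deviations from the group means with 1455444_at). Its difference was 0.50 ± 0.17 (SE) in APPsα-DM, not past the test (adjusted p = 0.0850), and 0.57 ± 0.17 in APLP2-KO (adjusted p = 0.0450). The APLP2-KO call was lost when any one of the 6 APLP2-KO arrays, or cortex 1 or hippocampus 2 of APPsα-DM, was left out, with adjusted p-values of 0.0551 to 0.159. The APPsα-DM difference was called without APPsα-DM hippocampus 1 (0.63, adjusted p = 0.0454) and was 0.33 without APPsα-DM hippocampus 3. The dim probe set 1443834_at (5.33 to 5.84) was at 0.24 ± 0.09 in APPsα-DM and 0.26 ± 0.09 in APLP2-KO, neither called. It was called without APPsα-DM hippocampus 2 in APPsα-DM (0.33, adjusted p = 0.0292) and in APLP2-KO (adjusted p = 0.0441), and in APLP2-KO also without APPsα-DM hippocampus 3 (0.0383), where the APPsα-DM value was 0.15. The closest patterns to 1419719_at were those of Pcdh19 (r = 0.992), Pcdh8 (0.990) and Cdh9 (0.989).

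Gabrb2, the commonest β subunit of the adult forebrain, had lower mean levels in hippocampus in 5 of 5 probe sets in APPsα-DM, none of which passed the test, and in 4 of 5 in APLP2-KO, of which 2 passed. Its leading probe set 1429685_at read 11.25, 11.33 and 11.35 in APPsα-DM hippocampus and 11.34, 11.19 and 11.09 in APLP2-KO hippocampus, against 11.65, 11.26 and 11.55 in APPsα-DM cortex and 11.45, 11.53 and 11.44 in APLP2-KO cortex. The tissues overlapped in APPsα-DM, where cortex 2 was the low array, and did not in APLP2-KO. The differences of -0.18 ± 0.10 (SE) in APPsα-DM (adjusted p = 0.318) and -0.27 ± 0.10 in APLP2-KO (adjusted p = 0.102) did not pass. The APLP2-KO value was called without APPsα-DM cortex 2 (adjusted p = 0.0345).

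The Gabrb2 probe sets 1428204_at and 1428205_x_at were at -0.22 ± 0.08 (adjusted p = 0.123) and -0.22 ± 0.09 (0.143) in APPsα-DM. In APLP2-KO they fell by 0.36 ± 0.08 (adjusted p = 0.0126) and 0.37 ± 0.09 (adjusted p = 0.0127). The interactions of 0.14 ± 0.12 and 0.15 ± 0.12 had unadjusted p-values of 0.27 and 0.238. Both APLP2-KO calls were lost without APLP2-KO cortex 2 (0.0537 and 0.0547), hippocampus 2 (0.0593 and 0.0507) or hippocampus 3 (0.0507 and 0.0595). The probe set 1428203_at was at -0.16 ± 0.10 in APPsα-DM and -0.22 ± 0.10 in APLP2-KO, and 1450319_at, with levels from 6.70 to 7.81 and no order by tissue, at -0.01 ± 0.31 and 0.15 ± 0.31. Neither was called. Group means of 1429685_at were 11.31 ± 0.05 in APPsα-DM hippocampus and 11.20 ± 0.13 in APLP2-KO hippocampus, against 11.49 ± 0.21 in APPsα-DM cortex and 11.47 ± 0.05 in APLP2-KO cortex (SD, n = 3 each), and the genotypes overlapped in each tissue. Srpk2, Strbp and Atf6 (r = 0.956, 0.956 and 0.955) had the nearest patterns.

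Neighbouring subunit genes did not all move alike. On chromosome 5 the genes follow each other as Gabrg1, Gabra2, Gabra4 and Gabrb1, and of these Gabrb1 rose, Gabra4 fell and Gabrg1, a γ subunit, was not called (-0.11 ± 0.09 in APPsα-DM and -0.07 ± 0.09 in APLP2-KO for 1460408_at). Next to Gabra5 on chromosome 7, Gabrg3, another γ subunit, went the opposite way. Its brightest probe set 1445846_at was 5.88 ± 0.23 in APPsα-DM hippocampus and 5.95 ± 0.16 in APLP2-KO hippocampus, against 6.50 ± 0.07 in APPsα-DM cortex and 6.41 ± 0.02 in APLP2-KO cortex (SD, n = 3 each). The difference was -0.62 ± 0.11 (SE) in APPsα-DM (adjusted p = 0.00237) and -0.45 ± 0.11 in APLP2-KO (adjusted p = 0.0148). Of the 8 other subunit genes analysed here, Gabrg3 was the 1 called, in both genotypes.

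The genes around the receptor are counted with 1 probe set per gene, of which 6.59% were higher and 7.34% lower in APPsα-DM and 6.78% higher and 9.7% lower in APLP2-KO, among 18193 genes. Of 8 genes for making, packaging, taking up and breaking down GABA, Slc32a1, the vesicular GABA transporter, was lower in hippocampus in both genotypes (-0.67 ± 0.08 in APPsα-DM, adjusted p = 0.000203, and -0.63 ± 0.08 in APLP2-KO, adjusted p = 0.00025). The glial GABA transporter Slc6a11 stood at -0.36 ± 0.11 in APPsα-DM (adjusted p = 0.0615) and was lower in APLP2-KO (-0.40 ± 0.11, adjusted p = 0.0349). Gad1, which makes GABA, was at -0.10 ± 0.08 in APPsα-DM and 0.00 ± 0.08 in APLP2-KO, not called. Of 13 interneuron genes, 7 were lower and 1 higher in APPsα-DM, and 4 were lower and 1 higher in APLP2-KO, with Pvalb at -0.73 and -0.94 in that order. Their part in the subunit differences was not tested.

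Of 24 genes for anchoring, assembly and trafficking of the receptor, 5 were higher in hippocampus and 1 lower in APPsα-DM, and 4 higher and 1 lower in APLP2-KO. Hap1, which helps receptors recycle to the membrane, was higher by 0.79 ± 0.11 in APPsα-DM (adjusted p = 0.000454) and 0.80 ± 0.11 in APLP2-KO (adjusted p = 0.0003415). Slitrk3, an adhesion protein of inhibitory synapses, was higher by 0.48 ± 0.09 and 0.35 ± 0.09 (adjusted p = 0.005005 in APPsα-DM and 0.0263 in APLP2-KO). Plcl2, a phospholipase C relative of the family that binds the receptor's trafficking proteins, was the member that fell, by 0.55 ± 0.06 in APPsα-DM (adjusted p = 0.000115) and 0.58 ± 0.06 in APLP2-KO (adjusted p = 5.96e-05). Gephyrin (Gphn), the scaffold of inhibitory synapses, was at 0.14 ± 0.07 and 0.12 ± 0.07 and not called (adjusted p = 0.292 and 0.333). Of 4 genes of the slower GABA-B receptor and its partners, Kctd8 was lower in APPsα-DM (-0.49 ± 0.11, adjusted p = 0.0149) and APLP2-KO (-0.43 ± 0.11, adjusted p = 0.02415), and Kctd12b stood at 0.28 ± 0.10 in APPsα-DM (adjusted p = 0.0952) and was higher in APLP2-KO (0.41 ± 0.10, adjusted p = 0.0146). The 3 chloride gradient genes were not called. Among them Slc12a5, the transporter that keeps neuronal chloride low, was at -0.18 ± 0.07 in both genotypes (adjusted p = 0.139 in APPsα-DM and 0.130 in APLP2-KO).

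The comparison the study was built for, APPsα-DM with APLP2-KO, asks what follows when secreted APPsα is left in place of full-length APP. None of the 21 probe sets of the 7 genes was called in cortex or in hippocampus by limma, and none had an unadjusted p under 0.05, against 4.5% of all probe sets in cortex and 4.11% in hippocampus. At the adjusted threshold 0.00888% of all probe sets were called in each tissue. The differences ran from -0.10 to 0.68 in cortex, with a median of 0.03, and from -0.17 to 0.60 in hippocampus, with a median of 0.07. In each tissue 14 of 21 were above 0, against 51.5% of all probe sets in cortex and 48.8% in hippocampus. Probe sets of 1 gene are not independent, so this count is a description only. The arrays of the genotypes overlapped for all 21 probe sets in both tissues, whereas 8.73% of all probe sets did not overlap in cortex and 9.88% in hippocampus.

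For the leading probe sets other than that of Gabra2, the 95% intervals bound the genotype difference closely. In hippocampus Gabra5 differed by -0.04 (-0.30 to 0.22), Gabrd by 0.07 (-0.12 to 0.26) and Gabra3 by -0.04 (-0.28 to 0.21). For Gabra4 the hippocampus difference was 0.04 (-0.11 to 0.19), for Gabrb1 0.04 (-0.16 to 0.23) and for Gabrb2 0.10 (-0.11 to 0.32). In cortex the values were 0.13 (-0.13 to 0.39) for Gabra5, -0.01 (-0.20 to 0.19) for Gabrd and 0.03 (-0.22 to 0.27) for Gabra3. Gabra4 was at 0.03 (-0.12 to 0.18) there, Gabrb1 at 0.04 (-0.16 to 0.23) and Gabrb2 at 0.01 (-0.20 to 0.22).

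Gabra2 had the largest genotype values and the widest intervals. Its leading probe set differed by 0.60 in hippocampus (-0.29 to 1.49) and by 0.60 in cortex (-0.29 to 1.49), with an unadjusted p of 0.167 in each. Averaged over the 2 tissues of a number the difference was 0.60 ± 0.36 (SE, unadjusted p = 0.128). The value moved with single arrays, among them the 2 APLP2-KO arrays that stood apart. In hippocampus it was 0.17 without APLP2-KO hippocampus 3 and 0.35 without APPsα-DM hippocampus 3, and in cortex 0.18 without APLP2-KO cortex 3 and 0.35 without APPsα-DM cortex 3. Averaged over tissues, none of the 21 probe sets of the 7 genes was called or had an unadjusted p under 0.05 (background 0.00888% and 4.03%).

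The tissue differences themselves were compared between the genotypes by the interaction, which called no probe set of the array (0%). Over the 21 subunit probe sets it ran from -0.25 to 0.19, with a lowest unadjusted p of 0.0969, and 3.79% of all probe sets had an unadjusted p under 0.05. For Gabra5 the interaction was -0.17 (-0.54 to 0.20) and for Gabrd 0.08 (-0.20 to 0.35). The larger number of calls in APLP2-KO than in APPsα-DM is therefore not shown to be a difference between the genotypes. Among the genes around the receptor no genotype difference was called either (0.011% of all genes were called in cortex, in hippocampus and averaged). Gad1 was higher by 0.19 ± 0.08 in APPsα-DM cortex before adjustment (unadjusted p = 0.035, adjusted p = 0.9996). It was the 1 of the 8 GABA synthesis and uptake genes under 0.05 there, against 4.5% of all probe sets. All 10 striatal genes were also above 0 in that comparison, with a median of 0.25 and none called. Of all probe sets 51.5% were above 0. The part of the striatal signal in the Gad1 value was not tested.

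**Figure D4:**
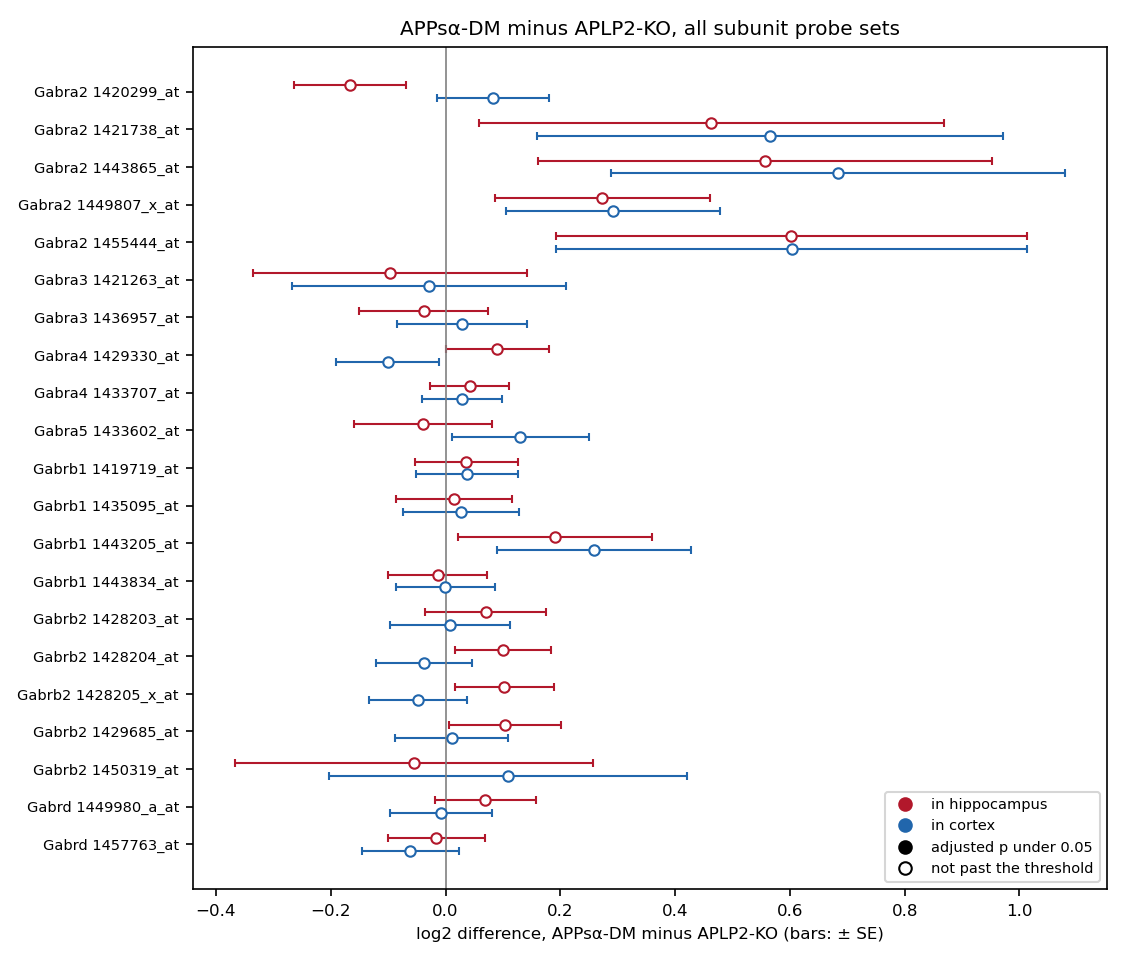
Difference in log2 signal, APPsα-DM minus APLP2-KO, of the 21 probe sets in hippocampus and cortex (bars are the moderated SE, all points open because none was called). All but the bright Gabra2 probe sets, at 0.46 to 0.68, lie between -0.17 and 0.29.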

How the data were processed

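RNA from prefrontal cortex and hippocampus was measured on 12 Affymetrix arrays. Values were deposited in log2 units. Per the submitters' processing notes, the authors used RMA and the affy package (no versions stated). RMA corrects background, normalises by quantiles and summarises each probe set, and no source says if it was run on the 12 arrays at once. Of 45101 probe sets, 64 controls were left out and 45037 were tested. By the platform annotation, 34945 carried 1 symbol, 932 several and 9160 none, and 34741 of the first kind matched RefSeq (GRCm38.p6). Probes can share targets within a gene, and the number of arrays limits the precision.

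In R 4.3.3, limma 3.58.1 (lmFit, eBayes) fitted the 4 group means over all 12 arrays (8 residual and 4.25 prior degrees of freedom). Contrasts were hippocampus minus cortex in each genotype, the genotype difference (APPsα-DM minus APLP2-KO) within each tissue, and their interaction; the genotype effect averaged over tissues was fitted on the means of the 2 tissues per genotype and number. P-values are two-sided and limma's, and adjusted p-values are Benjamini-Hochberg over 45037 probe sets, called under 0.05. The fit was tested on simulated data.

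The subunits and gene lists were chosen with earlier results of these data known. The probe set with the highest mean led each gene's account, all others were reported, from each list up to 4 genes with the smallest p could be named, and 3 genes of closest pattern were named per subunit. Cbln3 was added after seeing values. The labels number arrays 1 to 3 in each group. In APLP2-KO, deviations from the group means of same-numbered hippocampus and cortex arrays correlated at 0.109, 0.131 and 0.155, all over 0.1, and the numbers were taken to pair the samples there. In APPsα-DM the correlations were 0.0193 to 0.0785, and between genotypes -0.255 to 0.206, so no pairing was taken. Arrays of the 2 genotypes come from different mice, yet some passed 0.1 (up to 0.206 for the same number and 0.249 for different numbers). The cut-off therefore does not show that arrays of 1 number came from 1 mouse. Alternatives were leaving out each array, the replicate block, other normalisations and moderations, only the arrays compared, only probe sets above the median level, the mean of a gene's probe sets, and, chosen after seeing the data, leaving out the 2 cortex arrays high in Ttr.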

Additional observations from a re-analysis of the deposited data

How the results depend on the processing

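In both genotypes the tissue calls of Gabra5, of the leading probe sets of Gabrd, Gabra3 and Gabrb1 and of Gabrb1 1435095_at were kept under every setting run, as was that of Gabra4 1429330_at in APLP2-KO. The number of subunit probe sets called between the tissues was 7 in APPsα-DM and, leaving out 1 array, 5 to 8. In APLP2-KO it was 11 and, leaving out 1 array, 6 to 12 (6 without APLP2-KO cortex 2 and 7 without APLP2-KO hippocampus 2). Averaging the probe sets of a gene left 5 called genes of 7 in APLP2-KO. With the replicate number as a block it was 11 in APPsα-DM, where the numbers were not taken to pair the samples (7 shared, gaining 3 of Gabra2, with an adjusted p of 4.91e-05 for 1455444_at, and Gabrb1 1443205_at), and 14 in APLP2-KO (10 shared, gaining 4 Gabra2 probe sets and losing Gabra4 1433707_at). With the compared arrays alone, Gabra4 was lost in APPsα-DM for 1429330_at (adjusted p = 0.0723) and in APLP2-KO for 1433707_at (0.0833). Gabra4 1433707_at was gained in APPsα-DM among the probe sets above the median level (0.0209) and with trend and robust moderation (0.0169), which also gained Gabrb2 1429685_at in APLP2-KO (0.0493), and array medians lost Gabrb1 1443205_at there (0.0552). In 5 of 6 hippocampus arrays the best correlate in cortex had the same number. Without the 2 cortex arrays high in Ttr, 6 were called in APPsα-DM and 8 in APLP2-KO, and the genotype difference of Gabra2 in cortex was 0.40 in place of 0.60. The genotype, interaction and averaged comparisons called 0 of the 21 probe sets under every setting. No called difference changed sign. Values of single probe sets that crossed the threshold numbered 9 lost and 11 gained of 402 in APPsα-DM, and 29 lost and 11 gained of 402 in APLP2-KO. Of the 21 probe sets, 4 lay below the median level of the arrays, where signal over background limits what can be seen.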
